A study of Mus musculus with 9 samples.

Results

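The CCN proteins and the thrombospondins are secreted matricellular proteins, which sit in the extracellular matrix and signal to cells rather than build fibres. The members were taken by gene symbol from a table of raw ribosome footprint counts: Ccn1, Ccn2, Ccn3, Ccn4 and Ccn5, and Thbs1, Thbs2, Thbs3 and Thbs4. They are 9 of the 55359 genes of the table. All 9 passed a filter on low counts, which left 14714 genes for testing.

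The study measured translation by ribosome profiling (Ribo-seq, sequencing of the mRNA fragments that ribosomes protect from nuclease) in cultured mouse preadipocytes, taken from the inguinal (subcutaneous) white fat, during beige differentiation. Day 0 cells were not induced. Cells of day 4 and day 8 received an induction medium with dexamethasone, 3-isobutyl-1-methylxanthine, indomethacin, insulin, triiodothyronine and rosiglitazone for 2 days. They were then kept in medium without the first 3 of these. Each day had 3 libraries, 9 in all. Strain, sex and age of the mice, and whether the libraries of a day came from separate animals or cultures, are not given in the labels, so the p-values cover no more than the spread among libraries, which may be technical. The day 0 cells differ from the others both in medium and in time, and these cannot be told apart. A footprint count rises with mRNA amount and with ribosome load alike, and in a culture of mixed cells, fewer cells of a type and less RNA per cell cannot be told apart.

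CCN proteins carry modules that bind integrins and heparan sulfate, and several CCN genes, Ccn1 and Ccn2 above all, are standard reporters of YAP and TAZ, the coactivators that the Hippo kinases restrain and that act through TEAD factors. Ccn2 also answers to TGF-beta and to serum response factor (SRF). Thrombospondins bind CD36, CD47, integrins and matrix proteases. Thbs1 and Thbs2 form trimers and inhibit vessel growth, and Thbs1 can release active TGF-beta from its latent complex, while Thbs3 and Thbs4 form pentamers.

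Upstream sequence was at hand for 4 of the 9 members, as the 250 bases before the transcription start in RefSeq for GRCm38.p6, an earlier build than the GRCm39 used for the counts. Shown here are Ccn1, because it is a YAP and TEAD reporter, Thbs2, because it fell strongly, and Thbs4, because it was the member with no call against day 0. Capitals mark matches, on either strand, to the TEAD motif GGAATG, whose other strand reads CATTCC, and to the TATA motif TATAAA, whose other strand reads TTTATA.

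Ccn1, chr3:145649986-145650235, minus strand: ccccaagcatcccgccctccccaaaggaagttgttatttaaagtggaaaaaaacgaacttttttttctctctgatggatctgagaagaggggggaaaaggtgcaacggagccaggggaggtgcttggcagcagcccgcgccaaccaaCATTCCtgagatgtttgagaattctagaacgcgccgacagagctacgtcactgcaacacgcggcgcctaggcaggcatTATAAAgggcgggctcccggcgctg
Thbs2, chr17:14694263-14694512, minus strand: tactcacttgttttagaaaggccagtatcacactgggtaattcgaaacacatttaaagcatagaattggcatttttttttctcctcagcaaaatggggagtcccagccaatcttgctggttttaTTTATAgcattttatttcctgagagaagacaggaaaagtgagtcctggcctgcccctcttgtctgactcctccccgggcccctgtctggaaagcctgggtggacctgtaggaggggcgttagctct
Thbs4, chr13:92794819-92795068, minus strand: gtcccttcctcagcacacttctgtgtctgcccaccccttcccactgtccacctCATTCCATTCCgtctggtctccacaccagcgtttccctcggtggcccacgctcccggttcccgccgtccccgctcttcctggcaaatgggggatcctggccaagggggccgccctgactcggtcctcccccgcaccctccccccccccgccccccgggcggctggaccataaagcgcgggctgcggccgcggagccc

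Ccn1 held 1 TEAD match, 103 to 98 bases before the start, and a TATA match 25 to 20 bases before it. Thbs4 held 2 overlapping TEAD matches, 197 to 192 and 192 to 187 bases before the start. Thbs2 held a TATA match on the opposite strand, 126 to 121 bases before the start, and no TEAD match. The window of Thbs3 (chr3:89214930-89215179, plus strand) held neither. The CArG box, the site of SRF, was in none of the 4 windows. Of 32851 mouse promoter windows of this length, 12.6% held the TEAD motif, 12.4% the TATA motif and 1.47% a CArG box. A match is a description of letters and not a binding site.

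Libraries held 30823028 to 38994892 counts. Levels are given as CPM, counts per 1000000 counts of the TMM-scaled library, and they were compared within a gene across days, since coding lengths were not used here. The first principal component, with 75.9% of the variance, placed day 4 replicate 2 at 12.8, against 64.8 and 65.4 for the other day 4 libraries and -127 to -124 for day 0. It placed day 8 replicate 3 at 62.1, against 85.5 and 85.8 for the other day 8 libraries. Day 4 replicate 2 was the highest of its day for 7 of the 9 members and day 8 replicate 3 the highest of its day for 6. In both cases the library lay towards day 0, so results are also given without them.

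The summed level of 5 adipocyte markers (Adipoq, Fabp4, Plin1, Cidec and Ucp1) was 195.5 to 253.5 CPM at day 0, 31683 to 49357 CPM at day 4 and 47699 to 51170 CPM at day 8. Over the same days the sum of 7 precursor markers (Pdgfra, Pdgfrb, Ly6a, Dlk1, Cd34, Dpp4 and Pi16) was 2402 to 2551, 804 to 1823 and 527.1 to 721.5 CPM. All 5 adipocyte markers were called higher at day 4 and at day 8 over day 0. Of the precursor markers, 3 were called higher and 2 lower at day 4 over day 0, and 3 lower at day 8 over day 0. Over the alternatives these precursor counts ran from 0 to 3 higher and 1 to 3 lower at day 4, and from 3 to 5 lower at day 8. Without the libraries that stood apart they were 2 higher and 3 lower at day 4, and 5 lower at day 8.

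Against day 0, the CCN genes and most thrombospondin genes fell. Footprints of Ccn1 to Ccn5 and Thbs1 to Thbs3 were lower at day 4 and at day 8, from 2.23-fold for Ccn1 to 54.6-fold for Ccn3, both at day 8. Thbs4, which had few footprints, did not pass the test at either day. All the members together took 3.93% ± 0.192 of a library's counts at day 0, 0.357% ± 0.175 at day 4 and 0.569% ± 0.128 at day 8 (SD, n = 3 each). Most of this came from Thbs1 and Thbs2. The CCN genes together took means of 0.444%, 0.0476% and 0.0546% at these days.

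By edgeR's quasi-likelihood test with Benjamini-Hochberg adjustment over all tested genes (called under 0.05), 8 of the 9 members were called lower at day 4 than at day 0. Of all tested genes, 28.4% were called lower in that comparison, 29.8% higher and 58.2% in either direction. The same 8 had every day 4 library below every day 0 library, which 32.8% of all tested genes did. At day 8 the count was again 8 of 9 called lower, against 33.5% of tested genes called lower, 34.2% called higher and 67.7% called either way, and the same 8 lay wholly below day 0, as 38.2% of tested genes did. The members' median log2 fold change was -2.53 at day 4 and -3.40 at day 8 over day 0, beside medians of -0.02 and -0.01 for all tested genes. Both comparisons share the day 0 libraries. A test of any difference among the 3 days called 8 members, against 74.7% of tested genes, with an adjusted p of 0.127 for Thbs4.

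Between day 8 and day 4, 6 of the 9 members were not called. In that comparison 1 member was called higher (Thbs1) and 2 lower (Thbs2 and Thbs3), against 14.7% and 17.1% of tested genes and 31.8% in either direction, so the members' share was near that of all genes. Their median log2 fold change was -0.27, and that of all tested genes was -0.02. Libraries of the later day lay wholly above those of the earlier one for 1 member and wholly below for 1, which 22.2% and 23.0% of tested genes did. Without the day 4 replicate 2 and day 8 replicate 3 libraries, the counts were 8 lower at day 4 over day 0, 9 lower at day 8 over day 0, and 1 higher and 3 lower at day 8 over day 4. The counts over all genes were larger there too, at 10001, 10638 and 5481 genes called, against 8563, 9961 and 4676 with all libraries. Of these, 4998, 5290 and 2985 were called lower, against 4176, 4928 and 2517 with all libraries. At day 8 over day 4, 2496 were called higher, against 2159. The low-count filter was run anew in that setting, and shares of tested genes are not given for it.

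**Figure D1:**
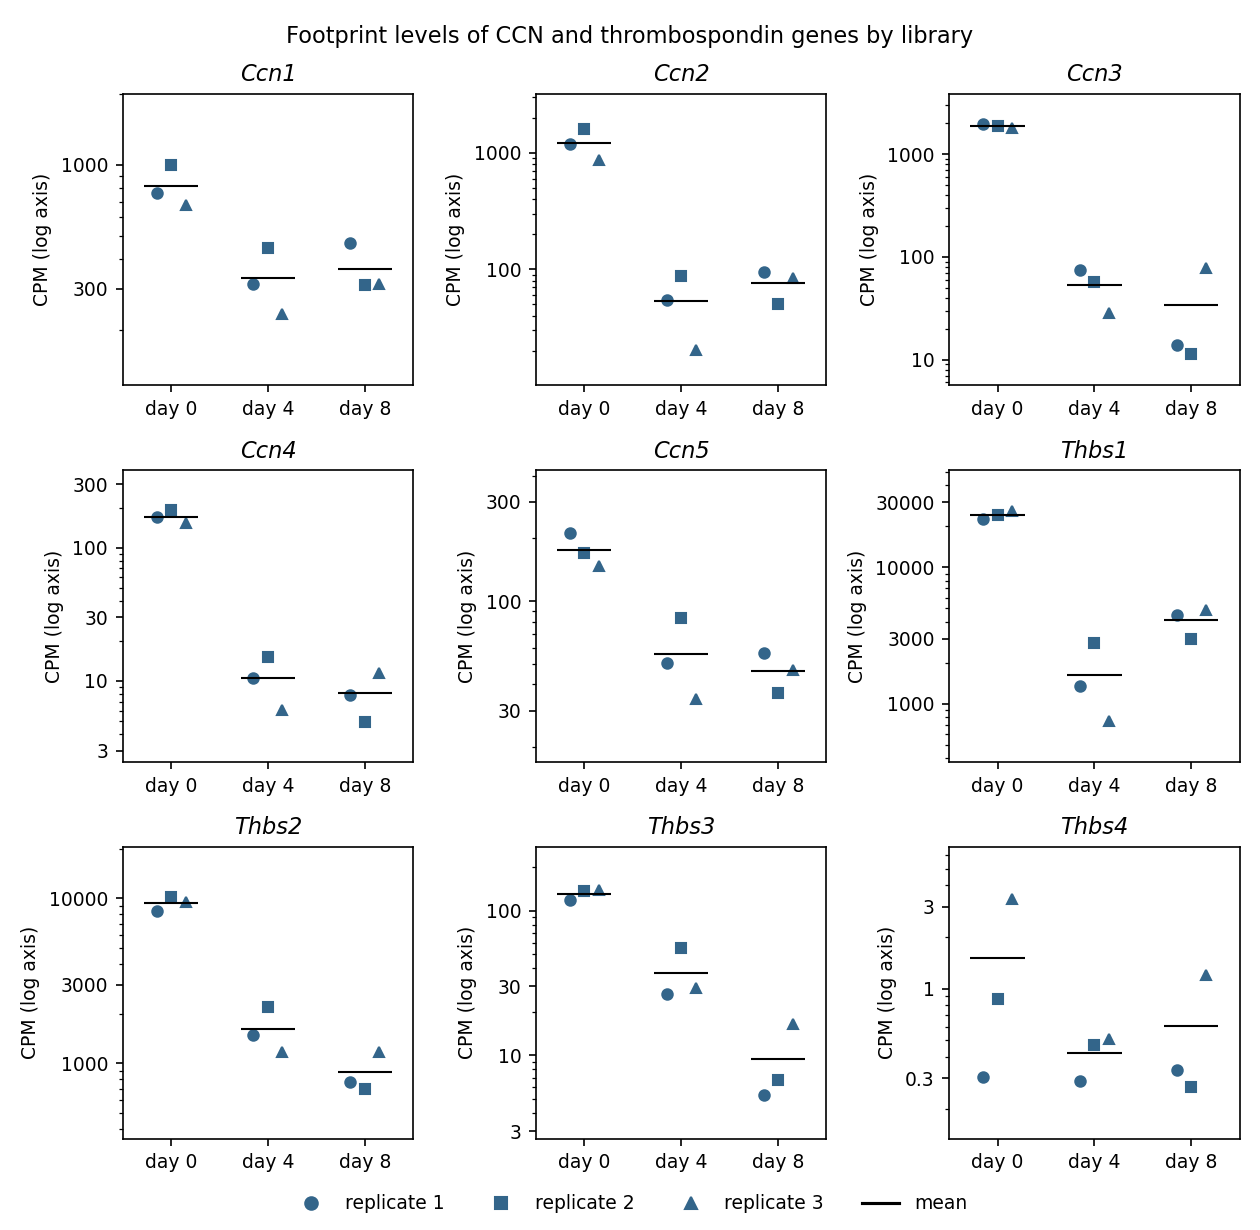
CPM of each member on a log axis, with 1 point per library, a marker shape for each replicate number and a line at the mean of each day. For 8 members the day 0 points lie above all others, and Thbs1 is the member whose day 8 points all lie above its day 4 points.

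Ccn1, an integrin ligand that is among the fastest genes to answer growth factors and YAP, kept the largest part of its day 0 level among the CCN genes. It had 761, 1001 and 679.5 CPM at day 0, 315.5, 447.7 and 234.6 CPM at day 4, and 468.8, 312.1 and 314.7 CPM at day 8. Every induced library lay below every day 0 library, and the day 4 and day 8 values were interleaved. The level was 2.45-fold lower at day 4 than at day 0 (log2 -1.29 ± 0.26 SE, adjusted p = 0.00197) and 2.23-fold lower at day 8 than at day 0 (log2 -1.16 ± 0.26, adjusted p = 0.00285). Day 8 over day 4 had a log2 fold change of 0.13, with a 95% interval of -0.44 to 0.71, and was not called.

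Ccn2, the connective tissue growth factor, is a matrix-inducing CCN protein and a shared target of YAP, TGF-beta and SRF. Its levels were 1185, 1622 and 879 CPM at day 0, 54.4, 87.5 and 20.2 CPM at day 4, and 94.7, 50.9 and 84.2 CPM at day 8. The lowest day 0 library was far above the highest induced one, and the induced days overlapped. Footprints fell 22.7-fold at day 4 against day 0 (log2 -4.51 ± 0.52, adjusted p = 5.99e-05) and 16.0-fold at day 8 against day 0 (log2 -4.00 ± 0.51, adjusted p = 7.84e-05). Day 8 over day 4 was not called, with a log2 fold change of 0.50 and an interval of -0.51 to 1.51.

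Ccn3, known for restraining proliferation in many cells, fell more than any other member in the fit. It had 1942, 1896 and 1780 CPM at day 0, 74.3, 57.2 and 28.3 CPM at day 4, and 13.9, 11.3 and 77.8 CPM at day 8. The day 0 libraries lay close together, and at day 8 replicate 3 stood above the other 2 by several fold. The level was 35.2-fold lower at day 4 (log2 -5.14 ± 0.76, adjusted p = 0.000287) and 54.6-fold lower at day 8 (log2 -5.77 ± 0.78, adjusted p = 0.00012) than at day 0. Without day 8 replicate 3 the day 8 fold was 147.6, and day 8 over day 4 was then called lower (log2 -2.08, adjusted p = 0.00401), where with all libraries it was not (log2 -0.63, interval -2.07 to 0.81). How far day 8 lies below day 4 for this gene thus rests on that 1 library.

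Ccn4, a Wnt-induced CCN protein of connective tissue, had 170.6, 191.6 and 153.3 CPM at day 0, 10.6, 15.1 and 6.09 CPM at day 4, and 7.84, 4.92 and 11.5 CPM at day 8. All induced libraries were far below day 0, and the 2 induced days overlapped. The fall was 16.2-fold at day 4 (log2 -4.02 ± 0.37, adjusted p = 1.34e-05) and 21.2-fold at day 8 (log2 -4.41 ± 0.38, adjusted p = 6.91e-06) against day 0. Day 8 over day 4 was not called (log2 -0.39, interval -1.15 to 0.37).

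Ccn5, another Wnt-responsive member, lacks the C-terminal module of the other CCN proteins and is made by mesenchymal precursors. Its 3 libraries had 212.3, 170.9 and 147.3 CPM at day 0, 50.9, 83.7 and 34.0 CPM at day 4, and 56.5, 36.4 and 46.9 CPM at day 8. No induced library reached the day 0 range, and the day 8 values lay within the range of day 4. Footprints were 3.15-fold lower at day 4 (log2 -1.65 ± 0.30, adjusted p = 0.00104) and 3.79-fold lower at day 8 (log2 -1.92 ± 0.30, adjusted p = 0.00032) than at day 0. With an interval of -0.93 to 0.39 around -0.27, day 8 over day 4 was not called.

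The CCN genes thus split by size of change, with Ccn2, Ccn3 and Ccn4 lower by 16.0-fold or more at both days and Ccn1 and Ccn5 by less than 4-fold. The difference in fold change between genes was not tested. Within each library, the ratio of Ccn1 counts to Ccn2 counts was 0.642, 0.617 and 0.773 at day 0, 5.80, 5.11 and 11.6 at day 4, and 4.95, 6.14 and 3.74 at day 8. All 6 induced libraries had a higher ratio than all 3 day 0 libraries, and the induced days overlapped. These are ratios of counts that are not corrected for gene length, so only their change across days is read. Ccn1 took 19.0% ± 1.37 of all CCN counts at day 0, 66.6% ± 5.34 at day 4 and 69.0% ± 8.87 at day 8, while Ccn3 took 44.4% ± 5.12, 10.6% ± 3.58 and 6.47% ± 6.99 at these days (SD, n = 3 each).

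**Figure D2:**
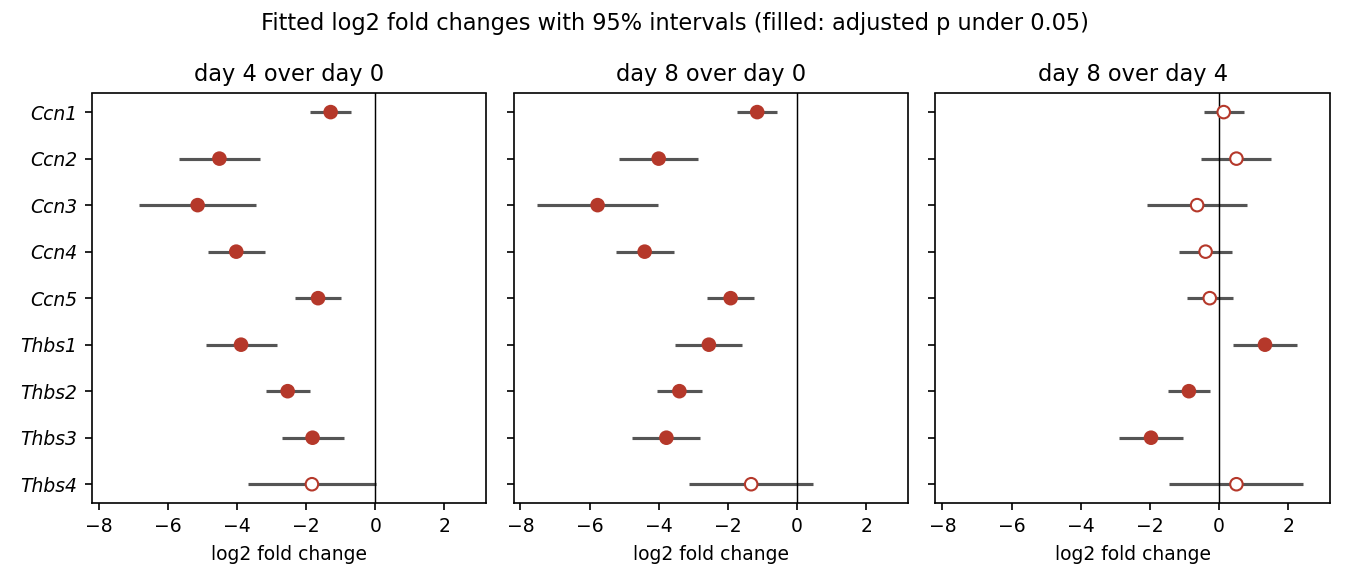
Fitted log2 fold change of each member with its 95% interval in 3 comparisons, day 4 over day 0, day 8 over day 0 and day 8 over day 4, with filled points for adjusted p under 0.05. Against day 0 the points of 8 members are filled and left of 0, and in day 8 over day 4 the filled points are Thbs1 to the right and Thbs2 and Thbs3 to the left.

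Thbs1, the trimeric thrombospondin that activates latent TGF-beta, was among the genes with the most footprints in the uninduced cells. It had 22513, 23999.5 and 25729.6 CPM at day 0, 1344, 2810 and 749.2 CPM at day 4, and 4439.6, 2984 and 4889 CPM at day 8. The 3 days did not overlap, with day 0 highest, day 4 lowest and day 8 between them. Thbs1 alone took 2.50% ± 0.111 of a library's counts at day 0, 0.154% ± 0.103 at day 4 and 0.422% ± 0.0989 at day 8 (SD, n = 3 each). By counts, not corrected for length, it ranked 5, 3 and 5 among all genes in the day 0 libraries, 94, 35 and 193 at day 4, and 11, 25 and 12 at day 8.

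Footprints of Thbs1 were 14.7-fold lower at day 4 (log2 -3.88 ± 0.46, adjusted p = 7.08e-05) and 5.87-fold lower at day 8 (log2 -2.55 ± 0.43, adjusted p = 0.000497) than at day 0. Day 8 was 2.51-fold above day 4 (log2 1.33 ± 0.42, interval 0.40 to 2.26, adjusted p = 0.0356). That last call is near the threshold: it was lost in 9 of 19 other settings, among them leaving out any of the 3 day 0 libraries, day 4 replicate 1 or 3, or day 8 replicate 1 or 3, with adjusted p of 0.0536 to 0.0971 over these and log2 values of 0.98 to 1.97 over all 19. Day 4 replicate 2, the highest of its day, weighed most on its size. Without it the level was 22.9-fold lower at day 4 than at day 0, and day 8 was 3.92-fold above day 4 (log2 1.97, adjusted p = 0.000747).

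Thbs2, the other trimeric and antiangiogenic thrombospondin, had 8397, 10254 and 9446 CPM at day 0, 1483, 2197 and 1173 CPM at day 4, and 772.8, 699.8 and 1180.0 CPM at day 8. Induced libraries were all below day 0, and day 8 replicate 3 lay just above the lowest day 4 library. The gene was 5.79-fold lower at day 4 (log2 -2.53 ± 0.28, adjusted p = 4.97e-05) and 10.6-fold lower at day 8 (log2 -3.40 ± 0.29, adjusted p = 7.66e-06) than at day 0. Day 8 was 1.83-fold below day 4 (log2 -0.87 ± 0.27, adjusted p = 0.0344), a call that was lost in 8 of 19 other settings. Without day 4 replicate 2 it was -0.59 (adjusted p = 0.0614), without day 8 replicate 1 or 2 the adjusted p was 0.118 and 0.124, and without day 0 replicate 2 or 3 it was 0.0502 and 0.0518.

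Thbs3, a pentameric thrombospondin expressed in skeletal tissues, was called lower at day 4 than at day 0 and again at day 8 than at day 4. Its levels were 117.6, 135.7 and 137.9 CPM at day 0, 26.4, 55.6 and 29.2 CPM at day 4, and 5.30, 6.76 and 16.4 CPM at day 8. The days formed a descending series with no overlap. The level was 3.51-fold lower at day 4 than at day 0 (log2 -1.81 ± 0.40, adjusted p = 0.0033), 13.7-fold lower at day 8 than at day 0 (log2 -3.78 ± 0.44, adjusted p = 4.51e-05) and 3.91-fold lower at day 8 than at day 4 (log2 -1.97 ± 0.41, adjusted p = 0.00683). All of these calls held in 19 of 19 other settings, and without day 8 replicate 3 the day 8 folds were 21.4 against day 0 and 6.16 against day 4.

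Thbs4, a pentameric thrombospondin of tendon and muscle, had few counts: 10, 28 and 121 in the day 0 libraries, 10, 17 and 18 in those of day 4, and 12, 10 and 43 in those of day 8. Replicate 3 was the highest of each day, and the days overlapped. The corresponding levels were 0.305, 0.867 and 3.34 CPM at day 0, 0.291, 0.468 and 0.508 CPM at day 4, and 0.335, 0.267 and 1.20 CPM at day 8. No comparison was called, with log2 fold changes of -1.83 at day 4 over day 0 (interval -3.69 to 0.03, adjusted p = 0.0834), -1.33 at day 8 over day 0 (-3.12 to 0.46, 0.166) and 0.50 at day 8 over day 4 (-1.43 to 2.44, 0.692). The intervals are wide and include falls as large as those of other members. Single libraries decided these values: leaving out day 0 replicate 3 gave a log2 fold change of -0.46 at day 4 and 0.037 at day 8 over day 0, without day 0 replicate 1 day 4 over day 0 was called (-2.29, adjusted p = 0.0278), and without day 8 replicate 3 day 8 over day 0 was called (-2.30, adjusted p = 0.0475).

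The balance of the 2 trimeric thrombospondins differed among all 3 days. Within each library, Thbs1 counts over Thbs2 counts were 2.68, 2.34 and 2.72 at day 0, 0.906, 1.28 and 0.639 at day 4, and 5.74, 4.26 and 4.14 at day 8. The ranges did not overlap, with day 4 lowest and day 8 highest. The means were 2.58 ± 0.210, 0.941 ± 0.322 and 4.72 ± 0.892 (SD, n = 3 each). This ratio needs no scaling between libraries, and it too is read only across days.

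**Figure D3:**
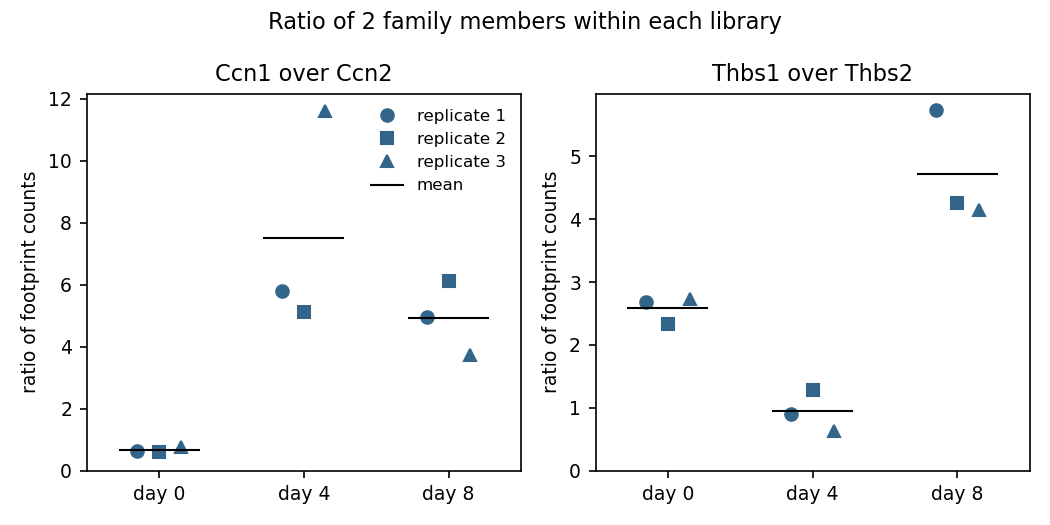
Ratio of Ccn1 to Ccn2 counts (left) and of Thbs1 to Thbs2 counts (right) in each library by day, with a line at the mean. Ccn1 over Ccn2 is below 1 at day 0 and above 3 in every induced library, while Thbs1 over Thbs2 is lowest at day 4 and highest at day 8.

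Of the remaining paralogs, Comp was lower at day 8 but not at day 4, and Ccn6 had no counts. Comp, the fifth thrombospondin and a cartilage matrix protein, averaged 26.04 ± 6.97 CPM at day 0, 26.1 ± 7.49 CPM at day 4 and 5.70 ± 1.96 CPM at day 8 (SD, n = 3 each). Day 4 over day 0 was not called (log2 0.00 ± 0.28, adjusted p = 0.993), while day 8 was lower than day 0 (log2 -2.19 ± 0.30, adjusted p = 0.000134) and than day 4 (log2 -2.20 ± 0.30, adjusted p = 0.00104). Ccn6 had 0 counts in all 9 libraries, which allows up to 0.0802 to 0.0929 CPM per library (3 counts, counting error only).

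The receptors of these proteins did not follow a single direction. Of 16 listed receptors, 3 were called higher and 10 lower at day 4 over day 0, and 4 higher and 9 lower at day 8 over day 0. Among all tested genes, 29.8% were called higher and 28.4% lower at day 4 over day 0. The shares were 34.2% and 33.5% at day 8 over day 0, and 14.7% and 17.1% at day 8 over day 4. Counts of this list and of the lists below are read beside these shares, which come from the fit of all 9 libraries. Counts in other settings have no such share beside them. The median log2 fold change of the list at day 8 over day 0 was -1.04. Cd36, a fatty acid transporter that also binds thrombospondins, averaged 4376 ± 100 CPM at day 8 and 19.8 ± 3.54 CPM at day 0 (SD, n = 3 each). Its rise over day 0 was 7.79 at day 8 (adjusted p = 9.06e-08) and 8.05 at day 4 (adjusted p = 6.02e-08) on the log2 scale. Cd47, the other main thrombospondin 1 receptor, averaged 134 ± 19.0 CPM at day 8 and 123.9 ± 10.8 CPM at day 0 and was not called (log2 0.11, adjusted p = 0.44).

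Among the integrins, Itga6, a laminin receptor chain that also binds Ccn1, rose (log2 3.89 at day 8 over day 0, adjusted p = 9.23e-08). Itgav and Itgb5, which pair into a vitronectin receptor that binds CCN proteins, fell by 1.81 and 2.40 on the log2 scale in that comparison (adjusted p = 4.48e-05 and 1.96e-05). At day 8 over day 4, 1 receptor was higher and 5 were lower, a share near the 31.8% of all tested genes called in either direction. Without the libraries that stood apart, 3 were higher and 11 lower at day 4 over day 0, 5 higher and 9 lower at day 8 over day 0, and 2 higher and 7 lower at day 8 over day 4, where the alternatives ran from 1 to 7 lower.

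YAP and TAZ themselves changed little and in opposite directions. Yap1 averaged 137.9 ± 3.01 CPM at day 0, 110.6 ± 9.78 CPM at day 4 and 92.5 ± 4.05 CPM at day 8 (SD, n = 3 each). It was lower at day 8 (log2 -0.58, adjusted p = 0.000435) and at day 4 (log2 -0.32, adjusted p = 0.0161) than at day 0. Wwtr1, which encodes TAZ, averaged 91.2 ± 6.93 CPM at day 0, 129.4 ± 13.5 CPM at day 4 and 128.0 ± 11.2 CPM at day 8. It was higher at day 8 (log2 0.49, adjusted p = 0.00377) and at day 4 (log2 0.50, adjusted p = 0.00404) than at day 0. Of 20 Hippo pathway components, 6 were higher and 9 lower at day 4 over day 0, 5 higher and 12 lower at day 8 over day 0, and 1 higher and 5 lower at day 8 over day 4 (1 to 3 higher and 3 to 6 lower over the alternatives). In the last comparison the share called was near the 31.8% of all tested genes called in either direction.

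Within that list, Wwc2, a scaffold of the Hippo kinases, fell by 1.42 on the log2 scale at day 8 over day 0. Amotl1, which binds YAP, fell by 0.82, and the TEAD factor Tead3 by 1.67. Mob1b, a cofactor of the Lats kinases, rose by 0.71. The largest adjusted p of these 4 was 5.84e-05, that of Mob1b.

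Other genes reported elsewhere as YAP or TAZ targets were mostly lower, with exceptions. Of 20 listed, none of them a member, 3 were higher and 11 lower at day 4 over day 0, 3 higher and 14 lower at day 8 over day 0, and 3 higher and 8 lower at day 8 over day 4. The median log2 fold changes were -0.88, -1.46 and -0.46. Without the libraries that stood apart, the counts were 5 higher and 13 lower, 3 higher and 15 lower, and 4 higher and 9 lower. Over the alternatives, those at day 8 over day 4 ran from 1 to 5 higher and from 4 to 9 lower. With all libraries, the 3 called higher at day 8 over day 0 were Nt5e, Ptpn14 and Dock5. Their log2 fold changes were 4.16, 0.68 and 0.43 (adjusted p = 0.000158, 0.00329 and 0.0194). Axl, a receptor tyrosine kinase, fell by 2.40 on the log2 scale at day 8 over day 0 (adjusted p = 1.41e-05), the RNA-binding protein gene Rbms3 by 2.89 (adjusted p = 2.82e-05), the Hippo kinase gene Lats2 by 1.86 (adjusted p = 2.02e-05) and Asap1, a regulator of ARF GTPases, by 1.66 (adjusted p = 2.88e-05).

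Among the genes listed for the SRF and MRTF actin programme, all that were called against day 0 were lower. Of 14, 13 were lower at day 4 and 13 at day 8 over day 0, and Srf itself was not called (log2 -0.33, adjusted p = 0.202, and log2 0.06, adjusted p = 0.818). The medians were -3.02 and -2.91 on the log2 scale, and 2 were lower at day 8 over day 4. Mrtfa, the coactivator that senses free actin, was lower at day 8 than at day 0 (log2 -1.73, adjusted p = 5.3e-06). So were the actin cross-linker gene Flna (log2 -2.73, adjusted p = 1.56e-05), the tropomyosin gene Tpm1 (log2 -2.98, adjusted p = 2.1e-05) and the LIM protein gene Fhl2 (log2 -3.35, adjusted p = 2.79e-05).

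In the TGF-beta pathway, 1 of 14 genes was higher and 10 lower at day 4 over day 0, 1 higher and 12 lower at day 8 over day 0, and 3 higher and 6 lower at day 8 over day 4. The ligand gene Tgfb3 fell by 3.07 on the log2 scale at day 8 over day 0 (adjusted p = 1.67e-06), and the signal transducer gene Smad3 by 1.47 (adjusted p = 2.28e-06). Ltbp3 and Ltbp1, which encode proteins that hold latent TGF-beta in the matrix, fell by 1.27 and 2.43 (adjusted p = 7.9e-06 and 1.8e-05).

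Of 14 other matricellular genes, 13 were tested, with 3 higher and 7 lower at day 4 over day 0, 2 higher and 10 lower at day 8 over day 0, and 7 lower at day 8 over day 4. Without the libraries that stood apart, 3 were higher and 11 lower at day 4 over day 0. The low-count filter was run anew in that setting, so the tested genes were not the same 13. In that setting 2 were higher and 11 lower at day 8 over day 0, and 1 higher and 9 lower at day 8 over day 4. At day 8 over day 0, the elastic fibre gene Fbln5 fell (log2 -3.82, adjusted p = 4.89e-05), as did its relative Fbln7 (log2 -3.66, adjusted p = 3.71e-05). Sparcl1, a relative of the collagen-binding protein SPARC, rose by 4.90 (adjusted p = 4.24e-07), and Smoc1, a calcium-binding protein of basement membranes, by 3.13 (adjusted p = 4.17e-05). Secreted matricellular genes as a kind were therefore not all lower.

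**Figure D4:**
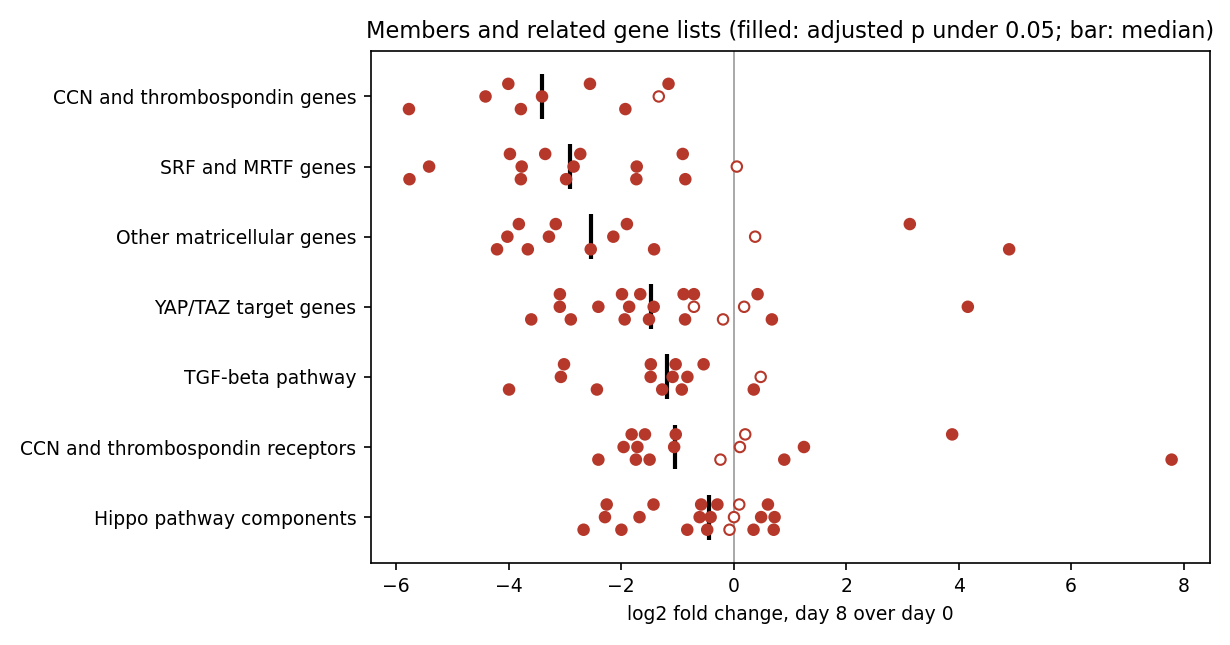
Log2 fold change at day 8 over day 0 for the members and for each gene of the 6 related lists, with filled points for adjusted p under 0.05 and a bar at each list's median. The members and the SRF and MRTF genes have no called gene to the right of 0, while the other lists have called genes on both sides.

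Patterns over the 9 libraries differed between members. Likeness was measured as the root-mean-square difference between centred log2 CPM profiles, among 8271 candidate genes for each of these members. For Ccn2 the closest genes were Tagln, Acta2 and Myl9, at 0.217, 0.232 and 0.276. They encode smooth muscle contractile proteins and are in the SRF and MRTF list. Thbs1 was closest to Cemip (0.205), Acta1 (0.298) and Tnc (0.324), and Thbs2 to Slc38a1 (0.104), Armcx2 (0.190) and Fam20a (0.190). Ccn1 was closest to Litaf (0.176), Cttnbp2nl (0.208) and Runx2 (0.208).

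For Ccn5 the closest were Tceal9 (0.150), Lxn (0.170) and Pdia5 (0.192), for Ccn4 Hs6st2 (0.252), Lrch2 (0.265) and Timp3 (0.273), and for Thbs3 Fbn2 (0.192), Slc9a9 (0.223) and Vdr (0.262). Ccn3 had no gene closer than C1qtnf3 (0.430), followed by Dpysl3 (0.434) and Kif26b (0.475). Thbs4 had none closer than Ngfr (0.650), H19 (0.659) and Flt1 (0.696). Among the members themselves, the closest pair was Ccn1 and Ccn5 (0.376), followed by Ccn2 and Ccn4 (0.528), both within the CCN genes, and then by Thbs2 and Thbs3 (0.561). This measure depends on the size of changes as well as their shape. Ccn1 and Ccn5 had the smallest spread of the members over the libraries, and Ccn3 the largest (SD of log2 CPM 0.703, 0.997 and 3.05).

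Markers of other cell types that can make these proteins were measured beside the members. Summed levels of 6 smooth muscle and pericyte markers were 69.3 to 93.3 CPM at day 0, 72.1 to 100.6 CPM at day 4 and 125.8 to 143.1 CPM at day 8. The sum hides opposite changes at day 8 over day 0: Cspg4 (log2 2.00), Des (1.67) and Notch3 (0.63) were called higher, while Myh11 (-2.57) and Kcnj8 (-2.40) were called lower. The contractile genes Acta2 (-3.98), Tagln (-3.77), Cnn1 (-5.76) and Myl9 (-3.78), counted above with the SRF and MRTF genes and named here after their values were seen, also fell in that comparison. Their part in the members' changes was not tested. Summed levels of 6 endothelial markers were 19.6 to 27.6, 6.03 to 20.1 and 3.42 to 7.92 CPM, with 4 of the 5 tested called lower at day 8 over day 0 (2 to 4 over the alternatives).

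Macrophage markers (6) summed to 50.1 to 99.3, 54.7 to 74.9 and 17.7 to 49.0 CPM at days 0, 4 and 8, and 2 of them were called lower at day 8 over day 0 (0 to 4 over the alternatives, 4 without the libraries that stood apart). Mesothelial markers (5, of which 2 were tested) summed to 28.2 to 47.5, 37.8 to 88.4 and 30.8 to 33.4 CPM. Nearly all of that was Krt19 (27.9 to 47.1, 37.2 to 87.3 and 29.8 to 32.8 CPM). Msln, Upk3b, Lrrn4 and Wt1 had at most 1.04 CPM in any library. Sums for the 4 platelet markers, of which Gp1bb was at 0 in all libraries, were 3.70 to 4.05, 2.38 to 2.71 and 2.57 to 3.84 CPM, and for the 4 Schwann cell markers 2.72 to 3.93, 2.88 to 4.16 and 3.80 to 4.17 CPM. Itga2b made up most of the platelet sum in each library, and S100b most of the Schwann cell sum. The precursor, endothelial and macrophage sums were lower at day 8 than at day 0, but not all their genes were called. In that comparison 3 of the 7 precursor, 4 of the 5 tested endothelial and 2 of the 6 macrophage markers were called lower. Of all tested genes, 33.5% were. At day 0 most of the precursor sum came from Pdgfra and Pdgfrb, and most of the endothelial sum from Tek. Lyz2 was the largest part of the macrophage sum at days 0 and 4. At day 8 Lyz2 had 1.06, 10.1 and 15.4 CPM, and Ptprc had 12.1, 14.8 and 14.5 CPM. The part of such cells in the members' changes was not tested.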

How the data were processed

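Ribosome footprints of 9 libraries were analysed from 1 table of raw counts per gene, which the authors deposited without normalization. Per the submitters' processing notes, reads were trimmed with cutadapt, aligned to GRCm39 with HISAT2 and counted with featureCounts. The sources used here do not give versions, counted feature, strand setting or the handling of reads with several matches. Groups were taken from the sample labels.

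Genes were filtered with filterByExpr (minimum count 10), given TMM factors and fitted in edgeR 4.0.16 (R 4.3.3) by its quasi-likelihood method, with day as the only term and all 9 libraries together. Benjamini-Hochberg adjustment covered all 14714 tested genes, and the threshold was 0.05. The fit was tested on simulated data. SE came from the F statistic, and intervals are 95%. limma 3.58.1 (voom) and DESeq2 1.42.0, other scalings, filters and sets of libraries were tried as alternatives. Likeness used log2 CPM with a prior count of 2 and genes of at least 10 mean CPM, without predicted genes, RIKEN names and pseudogenes.

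The 9 members and the lists were chosen with earlier results of these data known, so counts over them are descriptions. Named were all members, from each list described in full up to 4 called genes with the smallest adjusted p at day 8 over day 0, and Yap1, Wwtr1, Cd36, Cd47, Comp and Ccn6 in any case. Srf was named after its values were seen, as the 1 gene of its list without a call. Nt5e, Ptpn14 and Dock5 were likewise named afterwards, as the genes of their list called higher at day 8 over day 0. A planned comparison of levels between genes per coding length was not made, because coding lengths were not used here.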

Additional observations from a re-analysis of the deposited data

How the results depend on the processing

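Calls of 8 members against day 0 held in all 19 alternatives in both comparisons, and the number of members called was 8 or 9 there. Of the members' fold changes under alternatives, 479 kept direction and side of the threshold, 17 lost a call, 7 gained one and 7 changed sign. The 3 members called at day 8 over day 4 were 1 with only the 2 groups compared and 1 with the replicate block, and 1 to 3 when a replicate was left out. They were 1 without day 0 replicate 2 or 3 or day 8 replicate 1, which left Thbs3. Of all genes, 4676 were called at day 8 over day 4, and 2706 to 5481 when 1 replicate, or both libraries that stood apart, were left out, with 2706 without day 8 replicate 1 and 2760 without day 8 replicate 2. The cause was not tested.

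Signs turned for values that were not called. Thbs4 at day 8 over day 0 was 0.037 without day 0 replicate 3, within -2.32 to 0.037 when replicates were left out. At day 8 over day 4, Ccn5 was 0.13 without day 4 replicate 2 and 0.13 without it and day 8 replicate 3, Ccn1 was -0.065 without day 4 replicate 3 and -0.092 without day 8 replicate 1, and Thbs4 was -0.49 without day 8 replicate 3 and -0.41 without it and day 4 replicate 2. The ranges with replicates left out were -0.53 to 0.13 for Ccn5, -0.092 to 0.50 for Ccn1 and -0.49 to 0.85 for Thbs4. Thbs4 at day 4 over day 0 was called with no low-count filter (adjusted p = 0.0327) and by DESeq2 (adjusted p = 0.0466), and had no value with at least 50 counts in 3 libraries. The test over 3 days was not run with only 2 groups.

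At day 8 over day 4, 65.9% of the called genes were higher when scaled by library totals, against 46.2% of the called genes with TMM. The median of all genes there moved to 0.12. The median at day 4 over day 0 was -0.14 with the upper quartile and -0.17 with library totals, and at day 8 over day 0 it was -0.11 with the upper quartile. These shifts are small beside the falls of the 8 called members. With the replicate block, Thbs1 (log2 1.44, adjusted p = 0.0555) and Thbs2 (log2 -0.86, adjusted p = 0.0655) lost their calls at day 8 over day 4. Correlations of same-numbered deviations ran from -0.20 to 0.19, over 0.1 in 2 of 9 pairs, and those of other pairs from -0.30 to 0.31. With 3 libraries per day, such correlations cannot tell whether replicate numbers pair the libraries. Thbs4 had 10 to 121 counts per library, and single libraries decided its values.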

Other observations

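Several genes of the related lists had a level at day 4 that stood outside both other days. They were picked after their values were seen, so the values are descriptions. Igfbp3, an IGF carrier listed with the YAP and TAZ targets, averaged 441.2 ± 68.6 CPM at day 0, 1211 ± 388 CPM at day 4 and 270.7 ± 109 CPM at day 8 (SD, n = 3 each). Ccdc80, a secreted matrix protein of fat, averaged 754.6 ± 47.0, 1322 ± 223 and 463.1 ± 84.9 CPM at these days, and the TEAD factor Tead4 0.536 ± 0.179, 3.55 ± 0.520 and 0.542 ± 0.127 CPM. Gadd45a, a stress-response gene, was low at day 4, with 79.85 ± 16.5, 11.1 ± 0.801 and 90.95 ± 9.03 CPM.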
